A study of Mus musculus with 7 samples.

Results

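The transcripts described here belong to 33 genes of DNA replication and of the repair that accompanies S phase, chosen by name. They were measured in the prostate of Nkx3.1-/- mice, and 32 of them were found among the 18938 genes of the table. The remaining gene, the flap endonuclease Fen1, has no expression values here and enters only the search of promoter sequences below. Nkx3.1 is a homeodomain transcription factor of the prostate epithelium, and mice that lack it develop hyperplasia and dysplasia of the gland. All mice were homozygous null for Nkx3.1 in every cell, of a recombinant inbred B6/129 strain, and were 16 weeks old. From weaning they had received either plain water (vehicle, 3 arrays, replicates 1, 2 and 4) or 5 mM N-acetylcysteine (NAC), an antioxidant that supplies cysteine for glutathione, in the drinking water for 13 weeks (4 arrays, replicates 1 to 4). Each array carries RNA of 1 mouse, and the array of a further vehicle mouse had been dropped by the authors on quality grounds. The extraction protocol names the anterior prostate and a tissue label the whole gland, and the mice of each treatment were caged apart, so that cage and treatment cannot be told apart. The study reported that NAC raised the share of anterior prostate epithelial cells labelled with BrdU, which marks DNA synthesis, and with a mitosis marker. On these arrays it also reported proliferation gene sets enriched with NAC. The comparison of NAC with vehicle asked whether the antioxidant alters gene expression in the hyperplastic gland. The question put to these genes is whether the transcripts of DNA synthesis took part. Counts of labelled cells and transcripts of bulk tissue are different measures.

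During S phase, primase and DNA polymerase alpha lay down short primers, replication factor C loads the ring-shaped clamp PCNA at them, and polymerases delta and epsilon extend the strands while held by that clamp. Nucleases and glycosylases remove flaps and wrong bases, checkpoint proteins keep the fork stable, and chaperones and methylation factors rebuild chromatin behind it. Most of these genes are transcribed at the border of G1 and S phase under E2F transcription factors, so that in adult tissue their RNA is known as a sign of cycling cells. In bulk tissue, fewer cycling cells and less RNA per cycling cell cannot be told apart.

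Words of the E2F consensus stand in the promoters of several of these genes and are shown for that reason. Promoter sequences (RefSeq, GRCm38.p6) were found for 25 of the 33 genes, and the 250 bases before the start were searched on both strands for 4 words of the E2F consensus, TTTCCCGC, TTTCGCGC, TTTGCCGC and TTTGGCGC. At least 1 word was present in 7 of the 25 genes (28.0%), against 434 of 14877 measured genes with a promoter (2.92%). The words were not particular to these genes. They stood in 38.9% of 18 origin licensing genes and in 16.0% of 50 other fork and repair genes. The shares were 3.85% of 26 mitosis genes, near that of the measured genes, and 0% of 15 nucleotide synthesis genes. The word stands in capitals within up to 10 bases of its surroundings, read along the gene's own strand, where a word on the opposite strand appears as its reverse complement.

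Dtl (chr1:191575545-191575562, minus strand): gtgacgtcagTTTGGCGC

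Cdca7 (chr2:72476138-72476165, plus strand): gcgtcccggcGCGGGAAAgccggtggcc

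Casp8ap2 (chr4:32615284-32615311, plus strand): agtaccagagTTTGGCGCcaactggaat

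Rfc3 (chr5:151651209-151651228, minus strand): cgtcgcacgcTTTCGCGCtc

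Uhrf1 (chr17:56304118-56304145, plus strand): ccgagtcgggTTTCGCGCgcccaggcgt

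Hells (chr19:38930918-38930945, plus strand): accaccgggtTTTCCCGCgaaagagaag

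Pola1 (chrX:93632276-93632303, minus strand): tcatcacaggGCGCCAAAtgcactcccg

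The words of Dtl and Rfc3 begin 8 and 10 bases before the start, those of Hells and Cdca7 62 and 71 bases before it, and those of Pola1, Casp8ap2 and Uhrf1 138, 176 and 185 bases before it. The word TTTGAA, the core of the cell cycle homology region of mitotic promoters, was found in 4 of the 25 genes (16.0%) and in 15.7% of the measured genes. A match is only a run of letters and does not show that a factor binds there. The 7 genes with an E2F word did not share a direction with NAC. On the log2 scale of the arrays, their differences between NAC and vehicle were 0.16 for Dtl, 0.11 for Uhrf1, 0.02 for Hells, -0.01 for Pola1, -0.01 for Rfc3, -0.02 for Casp8ap2 and -0.03 for Cdca7.

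The arrays were alike in their medians (7.12 to 7.16), and markers of the luminal prostate epithelium averaged between 11.57 and 12.12 on every array. NAC 3 stands apart. The mean of 5 lung markers was 8.24 there and at most 5.45 on any other array, that of 6 skeletal muscle markers 8.07 against 7.41, that of 4 adipocyte markers 6.97 against 5.76 and that of 3 endothelial markers 7.64 against 7.36. NAC 4 had the highest luminal mean, 12.12 against at most 11.85 elsewhere, and NAC 1 the lowest mean of 5 seminal vesicle markers, 9.71 against 11.32 to 11.66 with vehicle. NAC 3 (10.58) and NAC 2 (11.16) were also below the vehicle arrays in these, and NAC 4 (11.57) was not. Over all 7 arrays, the means ran from 8.22 to 8.76 for basal epithelium, 11.96 to 12.16 for smooth muscle, 9.93 to 10.13 for fibroblasts, 5.63 to 5.82 for lymphocytes and 7.77 to 8.26 for macrophages. The highest basal and macrophage means were on NAC 1, which also had the lowest luminal mean (11.57, beside 11.58 on NAC 3). The part of these cell types in the values below was not tested. The differences of the 32 genes are also shown without NAC 3 and NAC 4, a fit that keeps NAC 1.

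Between NAC and vehicle, the replication genes had no common direction. Of the 32 genes, 18 were higher and 14 lower with NAC, and the median log2 difference was 0.0035, beside 49.8% higher and a median of -0.00029 over all genes. By limma, 0 of the 32 genes and 0 of all 18938 genes (0%) had an adjusted p under 0.05, the smallest adjusted p in the table being 0.827. At an unadjusted p under 0.05 there were 0 of the 32 genes, against 4.41% of all genes (1.89% higher and 2.53% lower with NAC). The 95% confidence intervals of the 32 differences lay between -0.41 and 0.53, so that 0 of them reached a 1.5-fold difference in either direction. The smallest and largest standard errors were 0.03 and 0.16. The groups did not overlap in 2 of the 32 genes, against 3.47% of all genes. These were Clspn and Pole, with every NAC value above every vehicle value (1.29% of all genes), and 0 genes had the reverse (2.18% of all genes). Both are dim, being among 11 of the 32 genes with a mean under the 40th percentile of all genes. The others are Rad51ap1, Dtl, E2f8, Ccne2, Blm, Hells, Dscc1, Pola1 and Cenpu. With fewer arrays, groups are apart more often in any gene: 4 of the 32 genes had groups that did not overlap without vehicle 1 (9.28% of all genes), and 4 without vehicle 2 (11.8% of all genes).

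**Figure D1:**
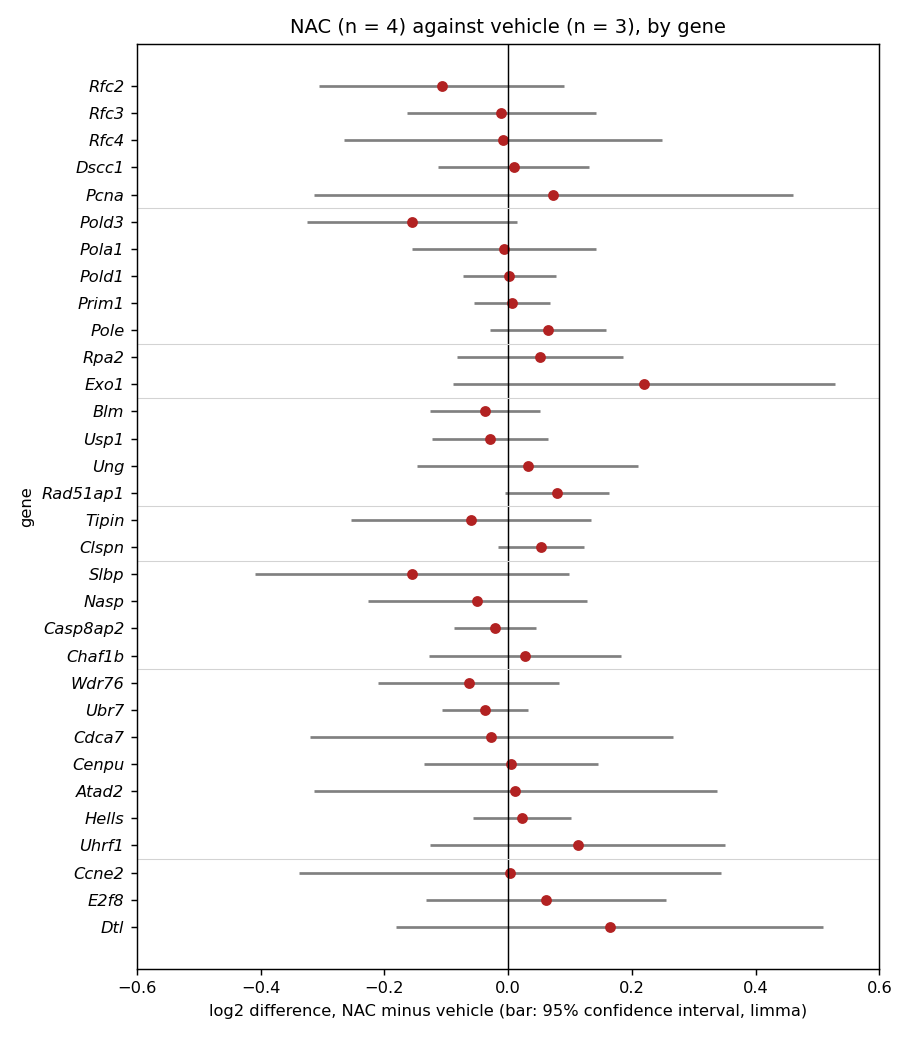
Log2 difference between NAC (n = 4) and vehicle (n = 3) on the x axis for each of the 32 genes on the y axis, in blocks by role in the order of the text, with dots for the estimate and bars for the 95% confidence interval of limma. Every interval includes 0, and all lie between -0.41 and 0.53.

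The sliding clamp and its loaders did not lean one way. Pcna, the clamp itself, had log2 values of 9.79, 10.19 and 9.67 on vehicle 1, 2 and 4 and of 9.62, 10.02, 10.12 and 10.06 on NAC 1 to 4. The groups overlapped widely, with the highest value on a vehicle array and the lowest on a NAC array. Its difference was 0.07 (standard error 0.16, 95% confidence interval -0.31 to 0.46), and -0.06 without NAC 3 and NAC 4. The Pcna value may not be that of the gene alone. Probe sets of this array are numbered along the chromosomes, and that of Pcna, a gene of chromosome 2, stands between probe sets of Ahnak and Scgb2a2 on chromosome 19, where the RefSeq gene table has the pseudogene Pcna-ps2 between the same neighbours. Its signal may therefore be shared with the copy.

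Rfc2, Rfc3 and Rfc4 encode subunits of replication factor C. Rfc2 was at 7.76, 7.62 and 7.61 with vehicle and at 7.64, 7.62, 7.62 and 7.34 with NAC. Only NAC 4 was below the vehicle arrays, and the difference of -0.11 (standard error 0.08) was -0.03 without NAC 3 and NAC 4. Rfc4 was lowest on NAC 4 (7.40) and highest on NAC 2 (7.87), with a difference of -0.01 that became 0.12 without NAC 3 and NAC 4. Rfc3, in contrast, was highest on NAC 4 (7.29). Dscc1, part of the alternative loader that acts in sister chromatid cohesion, had a difference of 0.01 over values from 4.92 to 5.08, both of them on vehicle arrays, the higher shared with NAC 1.

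Among the polymerases, Pold3, an accessory subunit of DNA polymerase delta, had log2 values of 8.69, 8.75 and 8.78 on vehicle 1, 2 and 4. With NAC the values were 8.45, 8.71, 8.67 and 8.50. NAC 1 and NAC 4 were clearly below the vehicle arrays, while NAC 2 lay above vehicle 1. The difference was -0.16 (standard error 0.07, unadjusted p = 0.067 and adjusted p = 0.827 by limma), and it was nearly the same, -0.16, without NAC 3 and NAC 4. Pold1, the catalytic subunit of the same enzyme, stayed between 7.02 and 7.09 on all arrays, with a difference of 0.0020 and a 95% confidence interval of -0.07 to 0.08.

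Pole, the catalytic subunit of polymerase epsilon, which copies the leading strand, was at 6.07, 6.06 and 6.06 with vehicle and at 6.12, 6.09, 6.21 and 6.09 with NAC. The groups did not overlap, but the gap between them was small and NAC 3 was the highest. Its difference was 0.06 (standard error 0.04, unadjusted p = 0.146 by limma), and 0.04 without NAC 3 and NAC 4. Pola1, the catalytic subunit of polymerase alpha, had a difference of -0.01 over values from 6.41 on NAC 4 to 6.62 on NAC 3. Prim1, the catalytic subunit of primase, held 6.76 on 6 arrays and 6.79 on NAC 1.

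Exo1, an exonuclease of mismatch repair and of DNA end resection, had the largest difference of the 32 genes. Its log2 values were 6.85, 7.09 and 6.70 with vehicle and 6.89, 7.36, 7.05 and 7.11 with NAC. NAC 2 was the highest array and vehicle 4 the lowest, but vehicle 2 lay above NAC 1 and NAC 3. The difference was 0.22 (standard error 0.13, 95% confidence interval -0.09 to 0.53, unadjusted p = 0.135 by limma), 0.24 without NAC 3 and NAC 4, and between 0.13 and 0.32 with any single array left out. Rpa2, a subunit of the protein that coats single-stranded DNA, was highest on NAC 3 (8.06) and had a difference of 0.05, which was -0.0050 without NAC 3 and NAC 4.

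Among the repair genes, Rad51ap1, which acts in homologous recombination, had the smallest unadjusted p of the 32. Its log2 values were 5.31, 5.41 and 5.31 with vehicle and 5.41, 5.41, 5.44 and 5.42 with NAC. The NAC arrays were level with vehicle 2 or just above it, and above vehicle 1 and 4. The difference was 0.08 (standard error 0.04, unadjusted p = 0.063 and adjusted p = 0.827 by limma), and 0.07 without NAC 3 and NAC 4. Together with Dtl and E2f8, this gene stands in the study's lists of leading edge genes chosen on these same arrays, so that its direction is not independent evidence. Blm, a helicase that resolves recombination intermediates, and Usp1, which removes ubiquitin from PCNA and FANCD2, had differences of -0.04 and -0.03. Ung, which excises uracil from DNA, had the same value, 6.82, on all 3 vehicle arrays and on NAC 1, was lowest on NAC 2 (6.67) and highest on NAC 3 (6.99), and had a difference of 0.03 that was -0.08 without NAC 3 and NAC 4.

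Of the fork protection genes, Clspn, which carries the checkpoint signal from ATR to CHK1, was at 6.00, 6.02 and 6.06 with vehicle and at 6.09, 6.08, 6.07 and 6.07 with NAC. All NAC arrays were above all vehicle arrays, by a margin smaller than the spread among the vehicle arrays. The difference was 0.05 (standard error 0.03, unadjusted p = 0.110 by limma), and 0.06 without NAC 3 and NAC 4. Tipin, which works with Timeless at the moving fork, was lowest on NAC 3 (6.66) and highest on NAC 2 (7.02), so that its difference of -0.06 was 0.0096 without NAC 3 and NAC 4.

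Genes of histone supply were lower in 3 of 4 cases. Slbp, which binds the stem-loop of histone messenger RNAs, had log2 values of 7.53, 7.53 and 7.66 with vehicle and of 7.45, 7.56, 7.53 and 7.14 with NAC. NAC 4 was far below the rest, and the other NAC arrays lay close to vehicle 1 and 2. The difference of -0.16 (standard error 0.11) was -0.06 without NAC 4 and -0.07 without NAC 3 and NAC 4. As with Pcna, the probe set of Slbp, a gene of chromosome 5, is numbered between probe sets of chromosomes 13 and 14, and its signal may include other sequence. The other 30 genes have probe sets numbered among those of their own chromosome. Nasp, a histone chaperone, had a difference of -0.05 (0.02 without NAC 3 and NAC 4), Casp8ap2, a factor of histone messenger processing, -0.02, and Chaf1b, a subunit of chromatin assembly factor 1, 0.03 (-0.04 without NAC 3 and NAC 4).

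Among the genes of DNA methylation and chromatin remodelling, Uhrf1, which brings the maintenance methyltransferase to newly copied CpG sites, was at 6.68, 6.65 and 6.69 with vehicle and at 6.69, 6.69, 7.07 and 6.69 with NAC. The value on NAC 3 alone set it apart, and 3 NAC arrays were level with vehicle 4. The difference was 0.11 (standard error 0.10), and 0.02 without NAC 3. Ubr7, a ubiquitin ligase, was at 8.42, 8.47 and 8.43 with vehicle and at 8.42, 8.40, 8.37 and 8.42 with NAC, a difference of -0.04 (standard error 0.03). Its NAC arrays reached up to vehicle 1 but not to vehicle 2 or 4. Cdca7 and Hells, which act together in chromatin remodelling, had differences of -0.03 and 0.02, Atad2, a bromodomain ATPase of chromatin, 0.01, the centromere protein Cenpu 0.0043, and Wdr76, a WD repeat protein, -0.06. Cdca7 and Atad2 were both highest on NAC 3 (7.87 and 7.88) and lowest on NAC 4 (7.33 and 7.25). Their differences became 0.09 and 0.13 without NAC 4 and -0.09 and -0.08 without NAC 3.

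The 3 genes of S phase control were all highest on NAC 3. Dtl, the receptor through which a CUL4 ubiquitin ligase degrades the licensing factor CDT1, was at 6.20, 6.34 and 6.33 with vehicle and at 6.34, 6.34, 6.86 and 6.27 with NAC. Leaving NAC 3 aside, the NAC arrays lay within the range of the vehicle arrays. The difference was 0.16 (standard error 0.15, 95% confidence interval -0.18 to 0.51) with all arrays and 0.03 without NAC 3. E2f8, a repressor that closes the E2F programme, was at 6.02, 5.97 and 5.92 with vehicle and at 5.98, 5.97, 6.25 and 5.92 with NAC. Its difference of 0.06 (standard error 0.08) was -0.01 without NAC 3. Ccne2, cyclin E2, which drives entry into S phase, was at 6.11 on NAC 3 and at 5.48 on NAC 4, beyond both ends of the other arrays, and had a difference of 0.0028 that was -0.13 without NAC 3 and 0.08 without NAC 4.

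**Figure D2:**
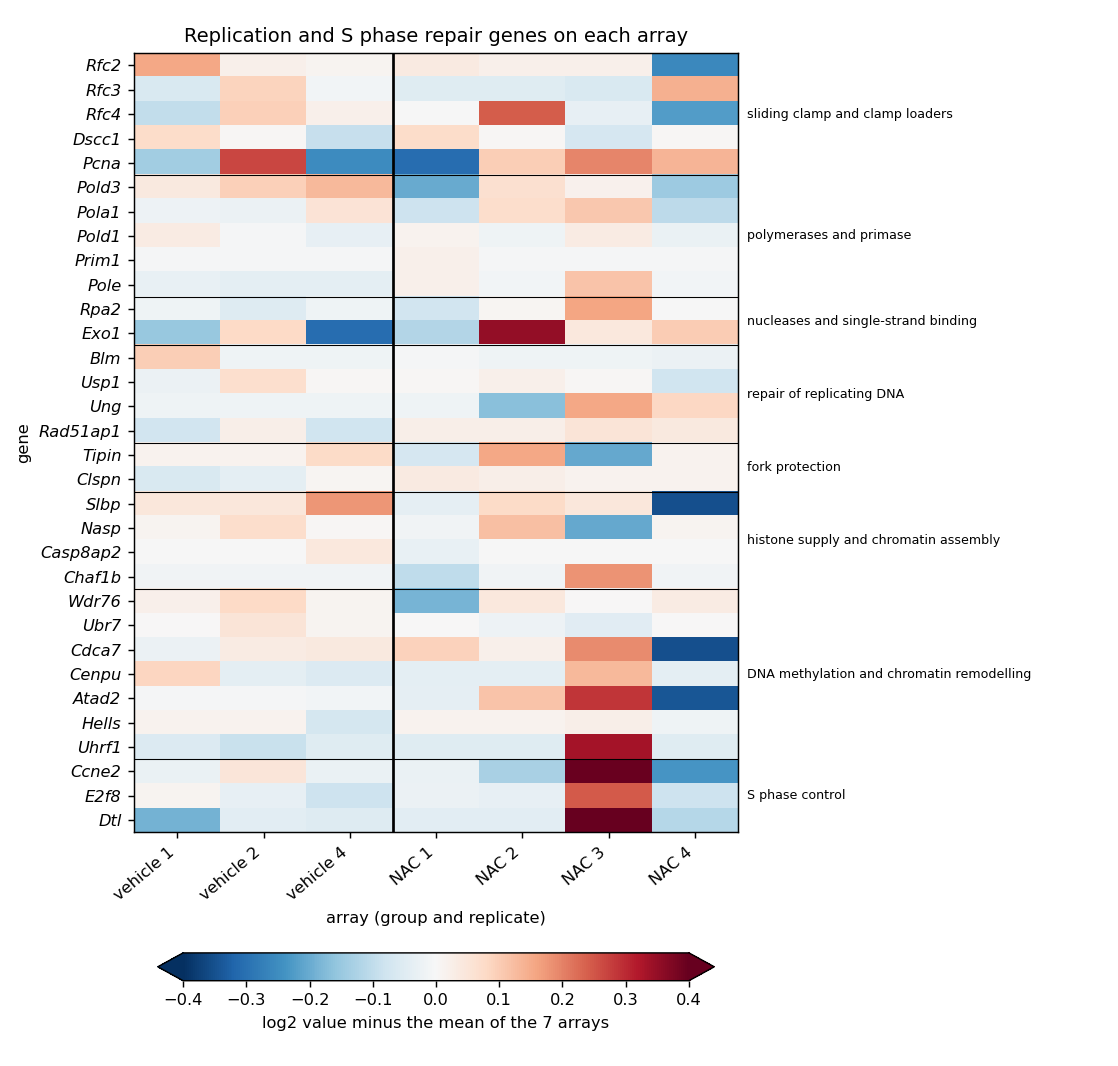
Log2 value minus the mean of the 7 arrays (colour, red higher and blue lower, clipped at 0.4 in either direction) for the 32 genes in rows, grouped by role, and the 7 arrays in columns, with the line between vehicle and NAC. NAC 3 is the reddest column, led by Dtl, Ccne2 and Uhrf1, and the deepest blue on NAC 4 belongs to Slbp, Cdca7 and Atad2.

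The widest spread was among the NAC mice. NAC 3 was the single highest array for 15 of the 32 genes (46.9%), against 14.8% of all genes. On NAC 3, 7 of the 32 genes (21.9%) were more than 0.1 above every other array, against 5.56% of all genes, and these were Dtl, Uhrf1, Ccne2, E2f8, Chaf1b, Atad2 and Rpa2. NAC 4 was the single lowest array for 9 of the 32 genes (28.1%), against 17.3% of all genes. The mean deviation of the 32 genes from the mean of the 7 arrays was 0.08 on NAC 3 and -0.06 on NAC 4, and -0.04 and 0.03 on NAC 1 and NAC 2. The vehicle arrays lay between -0.02 and 0.02. The SD among the NAC arrays exceeded that among the vehicle arrays in 22 of the 32 genes (68.8%, against 60.9% of all genes), with median SDs of 0.11 and 0.04 (0.08 and 0.06 over all genes). In 3 of the 32 genes all vehicle arrays held 1 value (1042 of all 18938 genes), so any spread with NAC exceeds theirs. The vehicle group also lacks the array dropped on quality grounds. NAC 3 is also the array with the highest means of lung, skeletal muscle, fat and endothelial markers, and NAC 4 that with the highest luminal mean. Whether either bears on the replication genes was not tested.

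Leaving out NAC 3, NAC 4 or both moved individual genes in both directions. Without NAC 3, 14 of the 32 genes were higher with NAC and the median difference was -0.01. Without NAC 4 these values were 21 genes and 0.02, and without both 15 genes and -0.0022, with 17 genes lower. In 11 of the 32 genes the sign of the difference turned without both arrays, among them Pcna, Ung, Rfc4 and Ccne2. The sign also turned in 4209 of all 18938 genes. By limma, 0 of the 32 genes had an adjusted p under 0.05 in any of these fits, against 0% of all genes without NAC 3 or without both and 0.00528% (1 gene) without NAC 4. At an unadjusted p under 0.05 there were likewise 0 of the 32 genes, against 3.36% of all genes without NAC 3, 3.15% without NAC 4 and 3.41% without both.

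**Figure D3:**
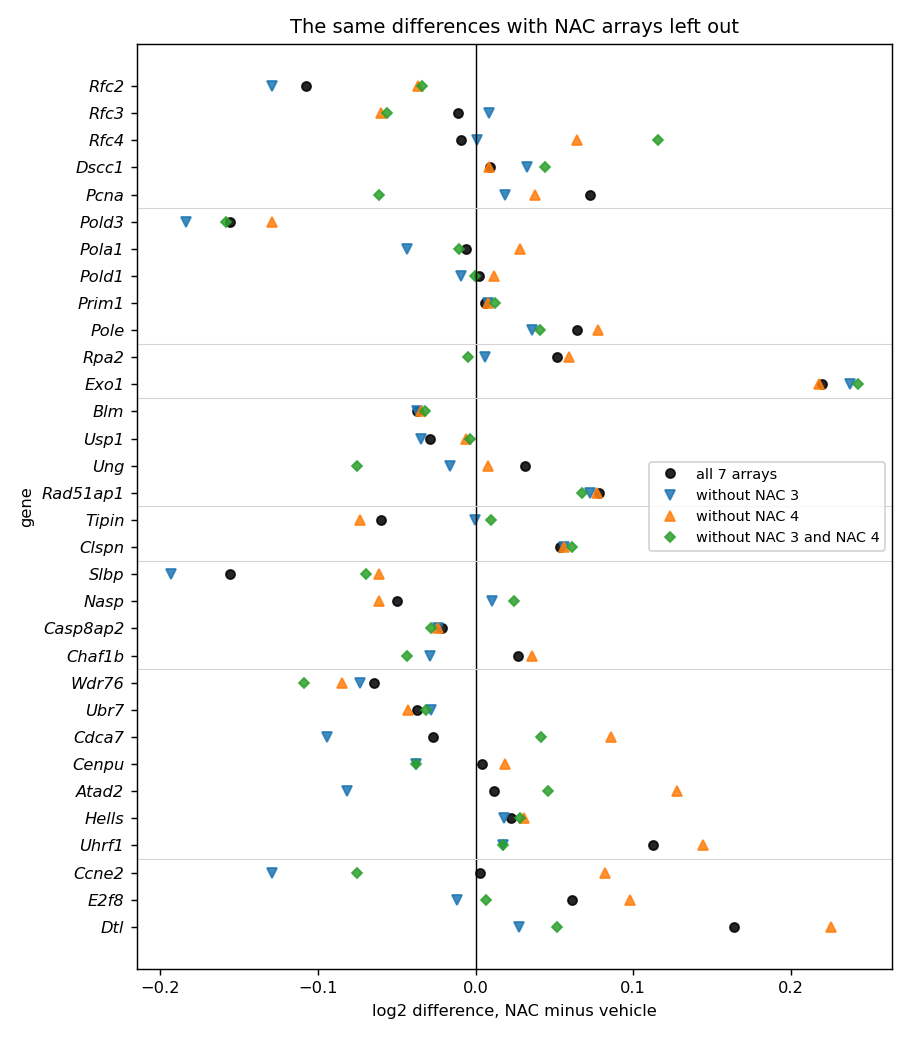
Log2 difference between NAC and vehicle (x axis) for the 32 genes (y axis, blocks by role) with all 7 arrays (black circles), without NAC 3 (blue triangles pointing down), without NAC 4 (orange triangles pointing up) and without both (green diamonds). The symbols of Ccne2, Atad2, Dtl and Cdca7 spread widest. Those of Rad51ap1, Clspn, Pold3 and Exo1 stay on 1 side of 0, as do those of many other genes, Dtl among them.

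The rest of the pathway was described from lists that do not overlap with the 32 genes. Of 56 other fork and repair genes, NAC was higher in 27 and lower in 29, the median difference being -0.0085 (24 higher and a median of -0.0020 without NAC 3 and NAC 4). The smallest unadjusted p belonged to Pms2, a mismatch repair protein, which averaged 7.61 ± 0.05 (SD, n = 3) in vehicle mice against 7.50 ± 0.05 (SD, n = 4) in treated mice. Top1, which relaxes DNA ahead of the fork, had a difference of -0.23 (standard error 0.10), Chtf8, of the alternative clamp loader, -0.13 (standard error 0.06), and Rmi1, a partner of Blm, -0.11 (standard error 0.06). Without NAC 3 and NAC 4 these were -0.17, -0.06 and -0.07, and that of Pms2 was -0.06. Of these, the groups of Rmi1 did not overlap. Of 23 genes of origin licensing and firing, NAC was higher in 14 and lower in 9, the median being 0.06 (0.03 without NAC 3 and 0.02 without NAC 3 and NAC 4). Of these genes, 6 stand in the study's lists, and of the 17 others 8 were higher, with a median of -0.0052. Gins2 and Gins1, subunits of the same helicase complex, had opposite differences of 0.13 and -0.13 (standard error 0.05 each), the origin recognition subunit Orc5 had -0.14 (standard error 0.06), and the helicase subunit Mcm5 0.08 (standard error 0.04). Of 14 genes of nucleotide synthesis, NAC was higher in 10 and lower in 4, the median being 0.08 (0.07 without NAC 3 and NAC 4, and 0.07 over the 12 genes outside the study's lists). There, Paics, an enzyme of purine synthesis, averaged 10.77 ± 0.02 (SD, n = 3) in vehicle mice against 10.64 ± 0.03 (SD, n = 4) in treated mice, with no overlap between the groups and the smallest unadjusted p of the list, 0.0032 (adjusted p = 0.827 by limma). The pyrimidine enzyme Umps had a difference of 0.16 (standard error 0.08), Nme1, a nucleoside diphosphate kinase, 0.09 (standard error 0.04), and Gart, of purine synthesis, -0.08 (standard error 0.04). In all of these lists, 0 genes had an adjusted p under 0.05 by limma.

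Mitosis genes are shown beside them because both groups of genes mark cycling cells. With all 7 arrays, all 29 measured genes of a mitosis list were higher with NAC, with a median difference of 0.11. The 32 replication genes had 18 higher and a median of 0.0035. Without NAC 3, 26 of the mitosis genes were higher (median 0.05), and 14 of the replication genes (median -0.01). The mitosis median was 0.18 without NAC 4 and 0.12 without both, and that of the replication genes 0.02 and -0.0022. Of the 29 mitosis genes, 17 stand in the study's lists of leading edge genes, drawn from these arrays, so that their direction is not independent evidence, as against 3 of the 32 replication genes. The 12 mitosis genes outside those lists were all higher too, with a median of 0.04. They come from the same arrays, and the study's lists cover only a sample of its gene sets. Their direction is therefore not independent evidence either. Cdca3, a factor of mitotic entry, averaged 7.13 ± 0.08 (SD, n = 3) in vehicle mice against 7.31 ± 0.06 (SD, n = 4) in treated mice, and the centrosome kinase Nek2 had a difference of 0.11 (standard error 0.04). Dlgap5 and Prc1, both of the spindle, had differences of 0.17 (standard error 0.07) and 0.17 (standard error 0.09). By limma, 0 mitosis genes had an adjusted p under 0.05. Unadjusted, 3 of the 29 had a p under 0.05 by limma, all higher with NAC (1.89% of all genes). Groups did not overlap in 3, again with NAC higher (1.29% of all genes), and Cdca3 and Nek2 were among them. Without NAC 3 and NAC 4, all 29 stayed higher. The difference between the lists was not tested. The list means of the arrays ran partly in parallel. NAC 3 was highest and NAC 4 lowest in the replication and in the mitosis genes, but vehicle 4, which was low in mitosis genes (-0.11), lay at -0.02 in replication genes.

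**Figure D4:**
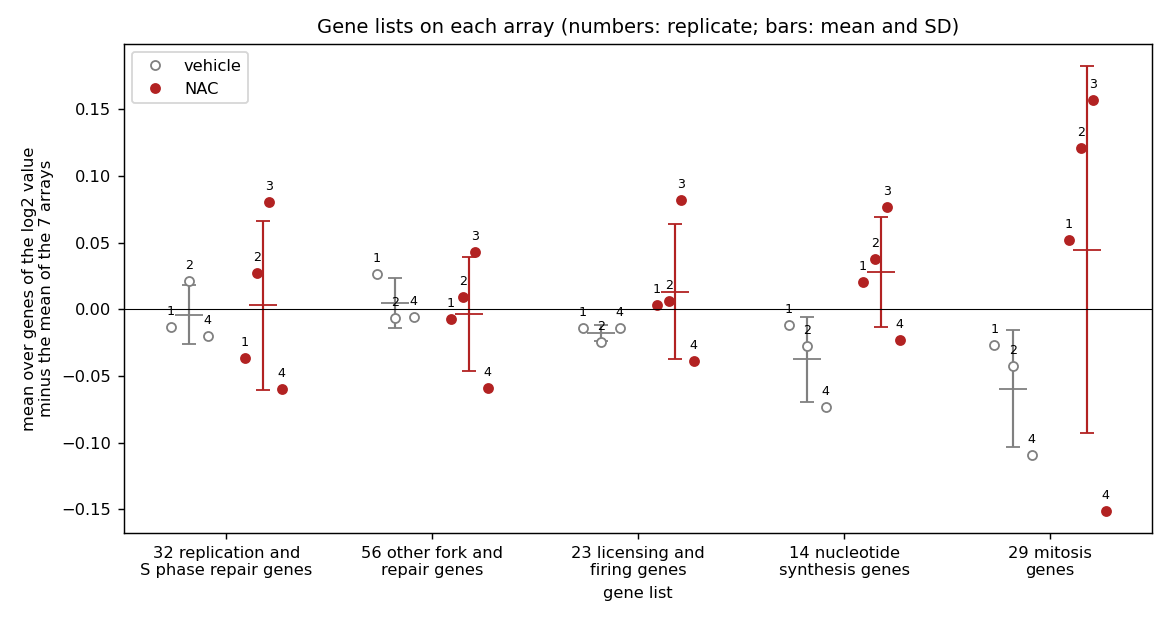
Mean over the genes of a list of the log2 value minus the mean of the 7 arrays (y axis), for 5 gene lists (x axis), with vehicle arrays as open grey circles (n = 3), NAC arrays as filled red circles (n = 4), replicate numbers beside them and bars for mean and SD. In the 32 replication genes the vehicle arrays lie within the span of the NAC arrays, from -0.06 on NAC 4 to 0.08 on NAC 3.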

How the data were processed

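Per the study's methods, the authors took intensities from Affymetrix Mouse Gene 1.0 ST arrays through quantile normalization, RMA background adjustment and summarization of perfect-match probes by median polish, and the deposited values are on the log2 scale. Tools listed by the submitters are affy, RMA and limma. Median polish can give several arrays the same value: 17 of the 32 genes hold 1 value (to 9 decimals) on at least 3 arrays. The same holds for 7568 of all 18938 genes (40.0%). Of 20696 probe sets, 18950 name 1 gene, 678 several and 1068 none here. Symbols were updated through Entrez identifiers (18922 found, GRCm38.p6), and the probe set with the highest mean was kept per gene. Columns without a sample numbered 0.

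The groups were compared by limma 3.58.1 (R 4.3.3, lmFit and eBayes, two-sided, no covariates), with Benjamini-Hochberg adjustment over 18938 genes and a threshold of 0.05. In 10 simulated runs of this comparison with 200 changed genes of 18938, the test called 25.1% of log2 changes of 0.25, 78.1% of 0.5 and 97.6% of 1, with 5.4 false calls per run. The labels give no extraction or scan batch, and precision is limited by the 7 arrays. Members and lists were chosen with earlier results of these data known. All members are named, with values on every array for the 10 with the smallest unadjusted p, those without overlap, the 3 in the study's lists and Pcna, and each other list is represented by its 4 genes with the smallest unadjusted p. A search of protein motifs was planned but not run. As alternatives, array medians were subtracted, quantile normalization was repeated, limma was run with a trend and robust options or with array weights, genes below the 40th percentile by mean were dropped, probe sets were merged by their median, replicate numbers entered as a block, and arrays were left out.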

Additional observations from a re-analysis of the deposited data

Results flagged for a closer look

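In 9 of the 48 genes named, 1 NAC array was far from the other 3. The criterion was that its distance to the nearest, as a share of the group's range, exceeded Dixon's 95% critical value. Chance gives this in about 1 in 20 groups, but only where arrays do not share a value. Several arrays often hold the same value here, so that rate is no yardstick for these genes. The share of all genes that meet the criterion was not counted, so 9 of 48 cannot be read as an excess. Small distances also met the criterion, as for Prim1, at 6.79 on NAC 1 with 6.76 on the others. Casp8ap2 was likewise at 7.67 on NAC 1 with 7.69 on the others. On NAC 3, Dtl was high at 6.86 (next value 6.34), Uhrf1 at 7.07 (6.69), Cenpu at 5.53 (5.36) and Mcm5 at 7.51 (7.43). On NAC 4, Rfc2 was low at 7.34 (7.62) and Usp1 at 8.51 (8.59), while Rfc3 was high at 7.29, above all other NAC arrays.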

How the results depend on the processing

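Under all 15 alternatives, 0 of the 32 genes had an adjusted p under 0.05, and of all genes 1 did, without NAC 4. At an unadjusted p under 0.05 there was 1 of the 32 genes with array weights (Pold3), with the replicate block (Pold3), and without vehicle 2 (Rad51ap1), vehicle 4 (Clspn) or NAC 2 (Pold3), and 0 otherwise, a range of 0 to 1 with 1 array left out. Over all genes, these 5 settings gave 5.05%, 5.05%, 4.86%, 3.51% and 6.64%. Per the study's methods, littermates were split between vehicle and NAC, and whether the replicate numbers pair mice is not known. Deviations of same-numbered arrays correlated at 0.21, 0.29 and -0.07, and those of differently numbered arrays at -0.27 to 0.21. These few correlations cannot decide whether the numbers mark pairs. With the number as a block, NAC 3 has no partner, and the differences equal those without NAC 3. Genes without overlap numbered 1 after subtraction of array medians (5.59% of all genes), 0 after quantile normalization again (6.13%), 0 without dim genes (4.29%, with 21 of the 32 genes left, 9 of them higher) and 2 to 4 with 1 array left out (4.89% to 11.8% of all genes). With 1 array left out, 13 to 21 genes were higher, the median lay between -0.01 and 0.02, and all genes called numbered 0 to 1. The cause of these shifts was not tested.

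Differences near 0 turned their sign. After subtraction of array medians, the difference was -0.00082 for Cenpu, -0.0024 for Ccne2 and -0.0031 for Pold1. After quantile normalization again, the difference was -0.0091 for Prim1, -0.024 for Cenpu, -0.0058 for Hells, -0.036 for Ccne2, -0.0043 for Pold1, -0.026 for Dscc1 and 0.0030 for Usp1. With array weights, the difference was 0.0031 for Cdca7. With the replicate block, the difference was -0.016 for Ung, -0.038 for Cenpu, 0.0083 for Rfc3, 0.00087 for Rfc4, 0.011 for Nasp, -0.13 for Ccne2, -0.0091 for Pold1, -0.081 for Atad2, -0.029 for Chaf1b and -0.012 for E2f8. Without NAC 3 and NAC 4, the difference was -0.061 for Pcna, -0.075 for Ung, 0.042 for Cdca7, -0.038 for Cenpu, 0.12 for Rfc4, 0.024 for Nasp, -0.076 for Ccne2, -0.00050 for Pold1, 0.010 for Tipin, -0.044 for Chaf1b and -0.0050 for Rpa2. With 1 array left out, the ranges that crossed 0 were -0.081 to 0.13 for Atad2, -0.057 to 0.0014 for Blm, -0.13 to 0.082 for Ccne2, -0.094 to 0.086 for Cdca7, -0.038 to 0.049 for Cenpu, -0.029 to 0.065 for Chaf1b, -0.035 to 0.048 for Dscc1, -0.012 to 0.10 for E2f8, -0.0055 to 0.036 for Hells, -0.10 to 0.011 for Nasp, -0.033 to 0.23 for Pcna, -0.043 to 0.028 for Pola1, -0.014 to 0.019 for Pold1, -0.060 to 0.031 for Rfc3, -0.091 to 0.064 for Rfc4 and -0.016 to 0.092 for Ung.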
